A study of Rattus norvegicus with 36 samples.

Results

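The transcriptome of H9C2 cells under hypoxia was compared with that under normoxia in cells carrying Trim AGU, a miR-125b isomiR shortened at its 3′ end. H9C2 is a rat cardiac myoblast line. The comparison took every library of the Hypoxia Trim AGU group and every library of the Normoxia Trim AGU group by their sample labels, 3 in each, which gave 6 of the 36 samples of the series. The series addressed whether miR-125b and its 3′ isomiRs act alike in hypoxic injury. All 12 groups received a mimic at 25 nmol/L for 24 h, which was the mimic control (MC), miR-125b, or 1 of 4 isomiRs: Plus A with an added A, and Trim A, Trim AG and Trim AGU with 3′ deletions. Normoxia or hypoxia then followed for 24 h.

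Both groups compared here carried the same Trim AGU mimic, so they differed by the conditions of the last 24 h. Hypoxic cells were kept below 0.2% O2 in low-glucose DMEM without serum. Normoxic cells received fresh DMEM under normal culture conditions, and the growth medium of the line held 10% fetal bovine serum. Oxygen, serum and glucose therefore changed together, and the part of each in a difference cannot be told apart. No hypoxia contrast under MC is given, because the Normoxia MC libraries did not enter. Nothing in the labels says that the 3 replicates came from separate cultures, so p-values measure the spread between these libraries, which may be technical.

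Mammalian cells sense low oxygen through prolyl hydroxylases, which mark the α subunits of the hypoxia-inducible factors (HIF) for destruction when oxygen is present. When oxygen falls, the subunits persist and raise genes of glucose uptake, glycolysis, angiogenesis and mitophagy. Shortage of amino acids, unfolded protein and mitochondrial stress act through another route, the integrated stress response, in which translation is slowed and the transcription factors ATF4 and CHOP (the product of *Ddit3*) raise genes of amino acid supply. Withdrawal of serum is itself known to take cells out of the cell cycle.

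The mature miR-125b and the Trim AGU form are shown because they differ at the 3′ end alone. The sequence of miR-125b is that of RefSeq (GRCr8, chr11:29732588-29732609, plus strand), and Trim AGU is the same sequence without its last 3 bases, which the name lists from the 3′ end. Capitals mark the seed, bases 2 to 8.
miR-125b: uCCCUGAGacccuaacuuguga
Trim AGU: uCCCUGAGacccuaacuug
The seed, which pairs with target transcripts, was the same in both. Trim AGU was 19 bases long and miR-125b 22.

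Libraries of Normoxia Trim AGU held 28868303 to 30275668 counts and those of Hypoxia Trim AGU 31870038 to 34048139. Replicate 2 of Hypoxia Trim AGU stood apart from its group. Its distance to replicates 1 and 3 was 1.02 and 0.971 (root mean square difference over 16285 genes on a log2 scale of normalised counts), while these were 0.582 from each other and the normoxic libraries 0.481 to 0.570. Short genes were higher and long genes lower in this library than in the other 2 hypoxic replicates. The median difference was 0.465 on the log2 scale for genes under 500 bases, -0.039 for those from 2000 bases up to 4000 and -0.61 for those of 8000 bases or more. Replicate 1 went the opposite way, from -0.463 to 0.456. Replicate 2 also had the fewest genes detected, 16981, and the largest share of counts from the mitochondrial genome, 5.70%. In Hypoxia Trim A and Hypoxia Trim AG, replicate 2 had the largest such share of its group as well, 5.00% and 5.29%. The part of these differences in the results was not tested other than by leaving the library out or by removing the length trend of each library, of which the second was chosen after the data were seen.

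**Figure D1:**
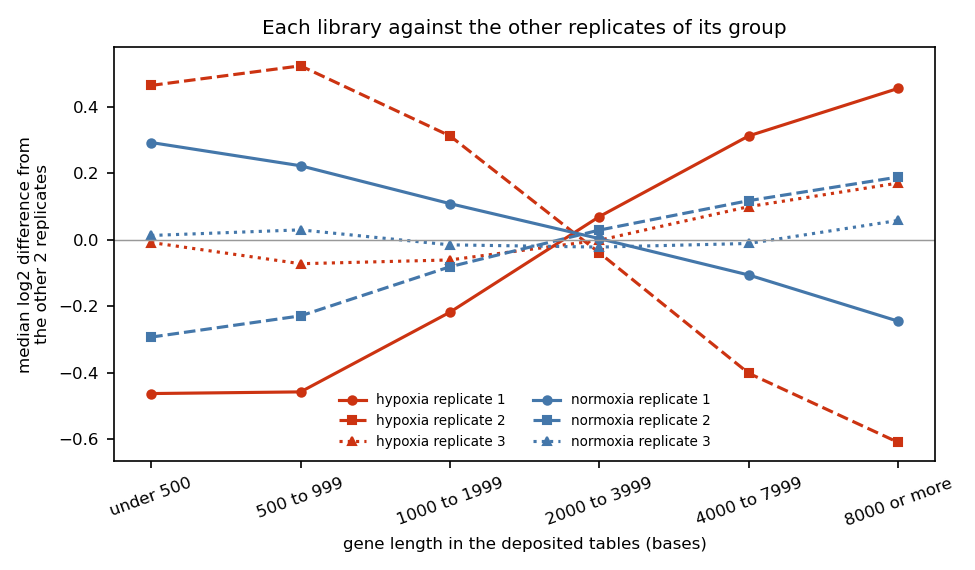
Median log2 difference of each library from the mean of the other 2 replicates of its group (vertical axis) by gene length in bases (horizontal axis), for the 3 hypoxic (red) and 3 normoxic (blue) Trim AGU libraries. Replicate 2 of hypoxia runs from 0.465 in the shortest genes to -0.61 in the longest and replicate 1 runs the opposite way.

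Markers of the labelled cell type were present, with a summed level of 3771 to 5649 CPM (counts scaled to a library total of 1000000) in hypoxia and 3382 to 3619 in normoxia for 9 myoblast markers. *Vim*, the mesenchymal intermediate filament, made up most of this sum, and *Myf5* was at 0 in every library. Of the 8 tested myoblast markers 0 were called higher and 3 lower by the rule given below, against 13.6% and 13.4% of all genes. The median log2 fold change of these markers was -0.357, so the sum does not stand for the members. Markers of mature cardiomyocytes summed to 4.24 to 5.65 CPM in hypoxia and 8.30 to 10.2 CPM in normoxia. Endothelial, leukocyte, epithelial and neural markers each summed to at most 4.99 CPM in hypoxia, and of these 4 lists the neural one was higher in normoxia, at 10.8 to 13.6 CPM. The part of these low levels in the results was not tested. In bulk RNA, fewer cells of a kind and less RNA per cell cannot be told apart.

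Of 21333 genes with a count in these libraries, 14811 were tested. A gene was called at an adjusted p-value below 0.05 in edgeR's quasi-likelihood test and a fold change of at least 1.5. Hypoxia raised 2017 genes (13.6% of those tested) and lowered 1978 (13.4%). The median log2 fold change of all genes was 0.00. Levels of the groups did not overlap, with all 3 hypoxic libraries above all 3 normoxic ones, for 25.8% of genes, and with all 3 below for 27.0%. Without replicate 2 of Hypoxia Trim AGU, 13.1% were higher and 15.6% lower. These shares are the background for the gene groups that follow. The change followed gene length across the 10425 genes whose mean reached 5 CPM. Its median ran from 0.703 on the log2 scale for genes under 500 bases to -0.497 for those of 8000 bases or more, and from 0.532 to -0.289 without replicate 2 of hypoxia. The same medians were 0.13 and -0.0964 under the miR-125b mimic, and 0.393 and -0.206 under Trim AG. The trend thus had the same direction under these mimics but was smaller than under Trim AGU. Counts of calls depended on the normoxic libraries: without Normoxia Trim AGU replicate 1, 2 or 3, the genes called higher numbered 1049, 918 and 738, and those called lower 1287, 1233 and 1099.

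Gene groups moved in distinct ways. Genes of mitosis, DNA replication and cholesterol synthesis fell nearly as whole groups. Genes of the integrated stress response and of the NRF2 antioxidant response rose in most members. HIF targets were split, glycolytic enzymes rose in part, and the respiratory chain had few calls.

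**Figure D2:**
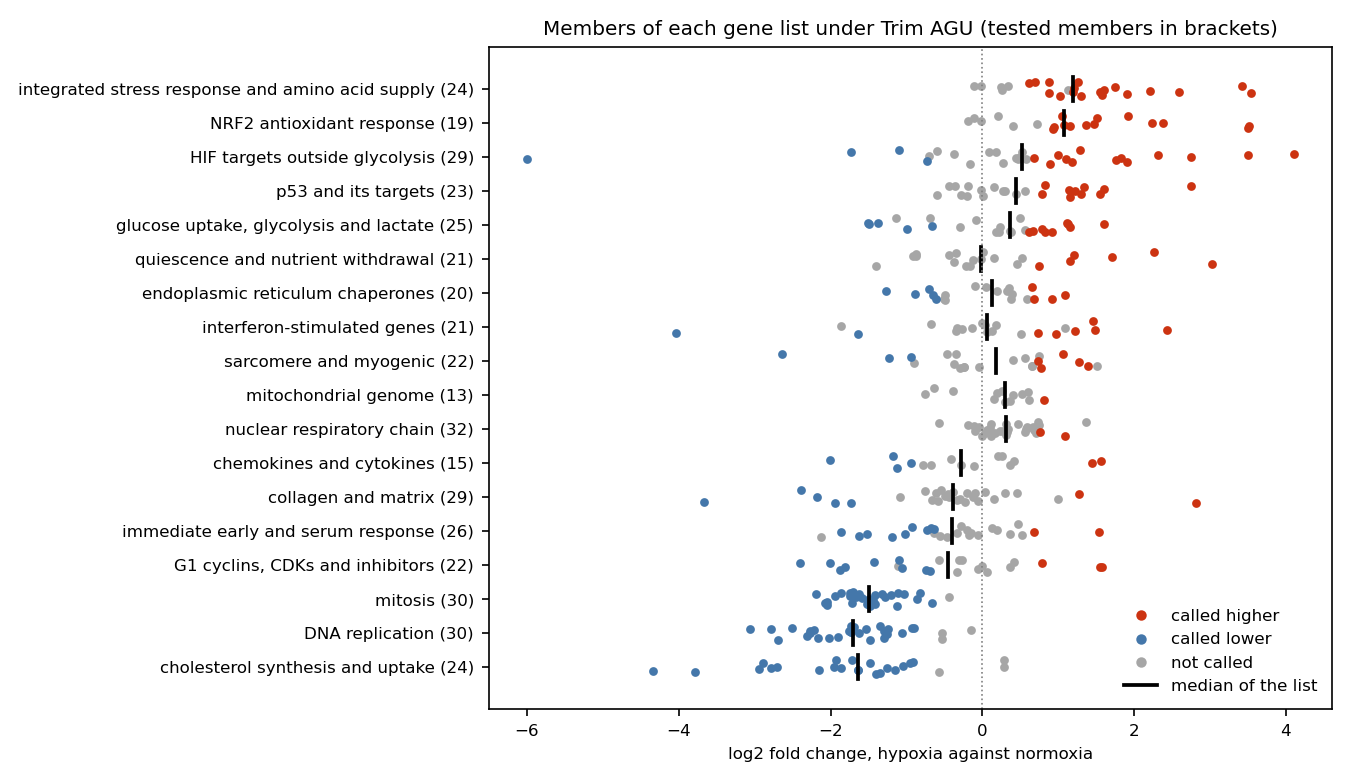
Log2 fold change of hypoxia against normoxia under Trim AGU (horizontal axis) for each tested member of 18 gene lists (rows), with members called higher in red, called lower in blue and not called in grey, and the black bar at the median of the list. The medians of mitosis (-1.50), DNA replication (-1.71) and cholesterol synthesis (-1.64) lie to the left and those of the integrated stress response (1.20) and the NRF2 response (1.07) to the right.

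Among the HIF subunits and oxygen sensors, 1 of the 6 tested members rose and none fell. *Vhl*, which encodes the ubiquitin ligase subunit that removes HIF α subunits, was at 85.0, 104 and 87.1 CPM in hypoxia and 51.3, 55.5 and 48.9 CPM in normoxia, a log2 fold change of 0.83 ± 0.14 (SE, adjusted p = 0.00500). *Hif1a* was at 122, 77.7 and 128 CPM against 134, 148 and 131 CPM, which did not pass (-0.33 ± 0.20, adjusted p = 0.236). *Hif1an*, the asparagine hydroxylase that blocks HIF activity, was at 13.7, 8.81 and 17.1 CPM against 19.3, 19.2 and 22.9 CPM (log2 fold change -0.63, adjusted p = 0.0922). *Epas1*, *Hif3a* and *Egln3*, the last a HIF target in many cells, were too low to be tested. RNA levels do not show how much HIF protein was present.

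Of 29 HIF targets outside glycolysis, 13 rose and 4 fell, with a median log2 fold change of 0.53. *Angptl4*, a secreted inhibitor of lipoprotein lipase, was at 12.4, 13.8 and 10.9 CPM in hypoxia and 0.623, 0.847 and 0.678 CPM in normoxia (log2 fold change 4.10 ± 0.24, adjusted p = 0.000161). *Bnip3*, a mitophagy receptor of the outer mitochondrial membrane, was at 202, 258 and 257 CPM against 35.4, 38.7 and 32.6 CPM (2.75 ± 0.16, adjusted p = 0.000161). *Vegfa*, the angiogenic growth factor, was at 638, 347 and 558 CPM against 139, 156 and 159 CPM (1.76 ± 0.23, adjusted p = 0.00197). The groups did not overlap for any of these 3 genes, although the second hypoxic library was the lowest for *Vegfa*. *Adm*, which encodes the vasodilator adrenomedullin, was at 21.0, 22.9 and 22.6 CPM against 5.85, 6.43 and 5.46 CPM (1.91 ± 0.16, adjusted p = 0.000384). *Ddit4*, an inhibitor of mTORC1, was at 86.4, 73.4 and 79.7 CPM against 22.6, 21.4 and 23.6 CPM (1.82 ± 0.13, adjusted p = 0.000267).

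Other HIF targets did not follow. *Ndrg1*, often strongly induced by hypoxia, did not pass (0.49, adjusted p = 0.569), nor did *Bnip3l* (0.47) or *Mxi1* (0.44). *Lox*, a collagen cross-linking enzyme, was at 263, 142 and 207 CPM against 604, 801 and 625 CPM (-1.73 ± 0.24, adjusted p = 0.00280). *Tfrc*, the transferrin receptor (-1.10, adjusted p = 0.00426), and *Bhlhe40*, a transcriptional repressor (-0.73, adjusted p = 0.0319), also fell.

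Of 25 genes of glucose uptake, glycolysis and lactate, 9 rose and 5 fell, with a median log2 fold change of 0.37. *Slc2a1*, the glucose transporter GLUT1, was at 88.5, 58.6 and 62.9 CPM in hypoxia and 26.6, 19.2 and 23.1 CPM in normoxia (1.61 ± 0.21, adjusted p = 0.00187). *Slc2a3* was at most 0.727 CPM in every library and did not pass (-1.14 ± 0.68, adjusted p = 0.234). *Pfkl*, the liver form of phosphofructokinase, was at 199, 177 and 166 CPM against 90.5, 66.7 and 90.2 CPM (1.13 ± 0.16, adjusted p = 0.00303). *Pfkm*, the muscle form, was at 60.9, 47.0 and 54.1 CPM against 145, 131 and 146 CPM and went the opposite way (-1.38 ± 0.14, adjusted p = 0.000723). *Pfkp*, the platelet form, fell as well (-1.0, adjusted p = 0.00242).

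The lactate dehydrogenase subunits also split. *Ldha*, the form that favours lactate production, was at 1353, 1978 and 1617 CPM against 1173, 1010 and 1054 CPM (0.61, adjusted p = 0.0387). *Ldhb* was at 14.4, 29.5 and 18.4 CPM against 58.0, 67.7 and 51.8 CPM (-1.51 ± 0.27, adjusted p = 0.00641). Earlier in the pathway *Pgk1* was at 754, 849 and 824 CPM against 519, 425 and 468 CPM (0.78, adjusted p = 0.00757). *Pdk1*, which restrains the oxidation of pyruvate in the mitochondria, rose by a log2 fold change of 0.66 (adjusted p = 0.0280). The entry enzyme *Hk2* was at 96.9, 53.1 and 76.3 CPM against 63.9, 59.8 and 70.7 CPM and did not pass (0.22 ± 0.22, adjusted p = 0.465), nor did *Pfkfb3* (-0.29). *Pkm*, a gene name carried by several identifiers and so uncertain, had a log2 fold change of 1.15 ± 0.16 (adjusted p = 0.00234).

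Several of the glycolytic calls were close to the threshold. Without Normoxia Trim AGU replicate 1, 2 or 3 the genes called higher in this list numbered 5, 4 and 3, and without Hypoxia Trim AGU replicate 3 they numbered 5. Those called lower numbered 3 without any 1 of the normoxic libraries and 3 without Hypoxia Trim AGU replicate 1 or 3. *Ldha* was not called without replicate 1, 2 or 3 of normoxia or replicate 2 or 3 of hypoxia (log2 fold change 0.45 to 0.67). The call of *Pdk1* was lost without any 1 of the libraries except replicate 2 of hypoxia (0.58 to 0.70), and that of *Pgk1* without replicate 3 of normoxia (0.77). With the length trend removed 6 rose and 4 fell.

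The integrated stress response was the list with the highest median in the plot of gene lists. Of its 24 tested genes 18 rose and none fell, against 13.6% of all genes, and the median log2 fold change was 1.20. The levels of the groups did not overlap for 19 genes, all higher in hypoxia, against 25.8% of all genes. Summed over the list, hypoxic libraries were at 6856 to 8557 CPM and normoxic ones at 3145 to 3399 CPM. The count was 19 without replicate 2 of hypoxia and 18 with the length trend removed.

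*Atf4*, its central transcription factor, was at 825, 1345 and 922 CPM in hypoxia and 441, 427 and 418 CPM in normoxia (1.27 ± 0.20, adjusted p = 0.00462). *Ddit3* was at 210, 474 and 277 CPM against 31.8, 28.6 and 29.2 CPM (3.42 ± 0.30, adjusted p = 0.000447). *Trib3*, a pseudokinase induced by both factors, was at 506, 584 and 499 CPM against 50.5, 37.7 and 47.7 CPM (3.55 ± 0.17, adjusted p = 9.31e-05). Every hypoxic library lay far above every normoxic one, and replicate 2 of hypoxia was the highest in each of these genes. *Ppp1r15a*, the phosphatase subunit that restores translation, was at 222, 201 and 197 CPM against 65.2, 46.6 and 53.6 CPM (1.91 ± 0.16, adjusted p = 0.000359). *Sesn2*, a leucine sensor and p53 target, was at 334, 273 and 267 CPM against 101, 86.2 and 100 CPM (1.60 ± 0.15, adjusted p = 0.000526).

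Amino acid genes of the list rose with these regulators. *Asns*, asparagine synthetase, was at 243, 383 and 267 CPM against 106, 104 and 95.7 CPM (1.54 ± 0.19, adjusted p = 0.00163). *Psph*, the last step of serine synthesis, was at 100, 182 and 132 CPM against 51.9, 40.2 and 46.8 CPM (1.58 ± 0.23, adjusted p = 0.00306). *Phgdh*, the first step, rose by 1.03, *Shmt2* by 0.88 and *Mthfd2* by 0.69. The step between these enzymes of serine synthesis, *Psat1*, was at 219, 282 and 249 CPM against 225, 187 and 219 CPM and did not pass (0.25 ± 0.15, adjusted p = 0.234). Transporters differed too, since *Slc3a2* rose by 1.30 and *Slc7a5* by 0.61 while *Slc7a11* (-0.01) and *Slc7a1* (-0.11) did not pass. The highest adjusted p with 1 library left out was 0.0644 for *Phgdh*, 0.0525 for *Mthfd2* and 0.0949 for *Slc7a5*.

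Endoplasmic reticulum chaperones, which respond to unfolded protein, did not move as a group. Of 20 tested, 4 rose and 5 fell, with a median log2 fold change of 0.12. *Dnajb9*, a co-chaperone, was at 59.5, 60.3 and 70.8 CPM against 30.9, 31.2 and 27.1 CPM (1.10 ± 0.14, adjusted p = 0.00179). *Hspa5*, the main chaperone of the compartment, was at 950, 1114 and 1044 CPM against 822, 842 and 779 CPM and did not pass (0.35 ± 0.14, adjusted p = 0.0964). None of the 5 that fell, *Edem1* (-1.27), *Sdf2l1* (-0.89), *Pdia3* (-0.70), *Pdia4* (-0.65) and *Calr* (-0.61), was called without Normoxia Trim AGU replicate 1 or 3 or without Hypoxia Trim AGU replicate 3, where the count of fallers was 0. It was 1 without Normoxia replicate 2 and 3 without Hypoxia replicate 1. The risers numbered 2 without any 1 normoxic library or without Hypoxia replicate 3.

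The antioxidant genes under NRF2 rose in 13 of 19 tested members, and none fell. The median log2 fold change was 1.07. *Hmox1*, heme oxygenase 1, was at 911, 1088 and 969 CPM in hypoxia and 95.2, 76.2 and 91.5 CPM in normoxia (3.50 ± 0.17, adjusted p = 9.31e-05). *Nqo1*, a quinone reductase, was at 1923, 2626 and 2050 CPM against 522, 311 and 436 CPM (2.38 ± 0.24, adjusted p = 0.000660). *Osgin1* was at 34.1, 43.4 and 25.1 CPM against 3.39, 2.51 and 3.07 CPM (3.52 ± 0.26, adjusted p = 0.000270). Every hypoxic library lay above every normoxic one in each of them. *Nfe2l2*, which encodes NRF2 itself, was at 422, 519 and 472 CPM against 172, 169 and 152 CPM (1.52 ± 0.14, adjusted p = 0.000533). *Sqstm1*, an autophagy receptor that also binds the NRF2 inhibitor KEAP1, was at 1795, 1818 and 1716 CPM against 407, 322 and 381 CPM (2.26 ± 0.16, adjusted p = 0.000244). *Keap1* (0.21), *Gclm* (-0.19) and *Gpx1* (0.71) did not pass. The highest hypoxic level of *Nqo1* was in replicate 2, and the list had 13 risers without that library and 13 with the length trend removed.

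**Figure D3:**
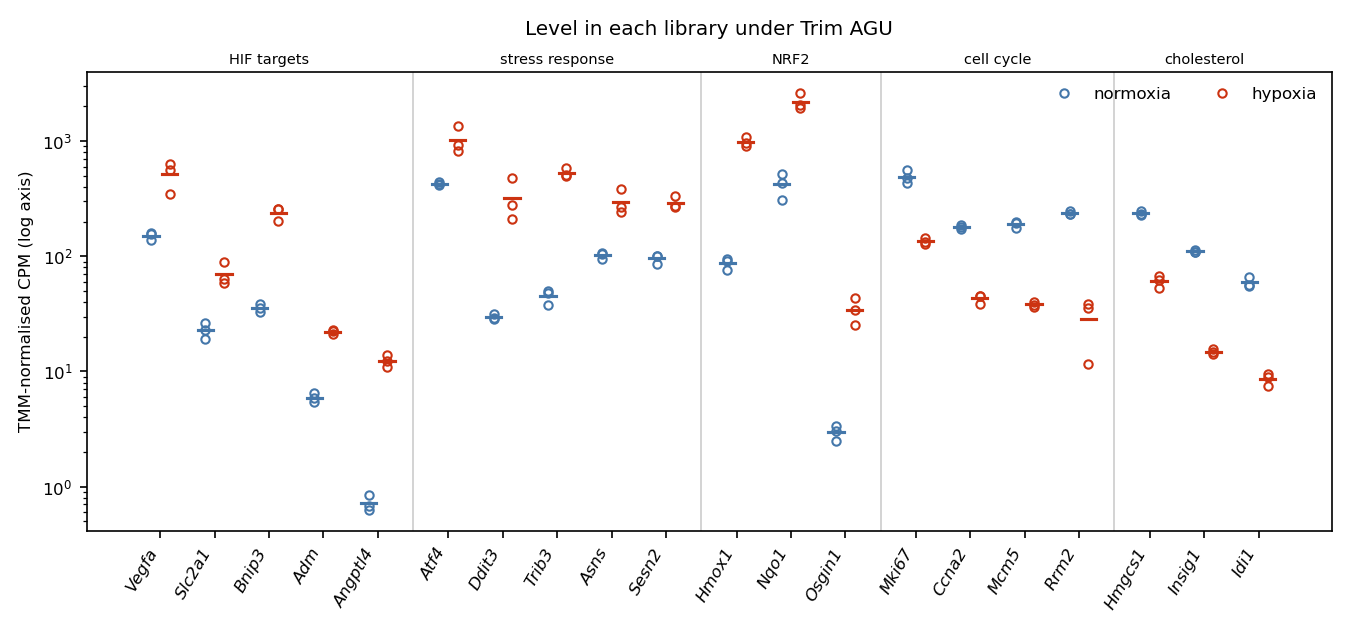
Level of 20 genes in each library of Trim AGU (vertical axis, normalised CPM on a log axis) in normoxia (blue) and hypoxia (red), where each point is a library and each bar the mean of 3. The groups do not overlap for any gene shown, while of all genes 25.8% lie wholly higher and 27.0% wholly lower in hypoxia. The HIF targets, stress response and NRF2 genes shown lie higher in hypoxia, and the cell cycle and cholesterol genes shown lower. The genes are examples and do not stand for their lists: of 29 HIF targets outside glycolysis 13 rose, 4 fell and 12 were not called.

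Proliferation genes fell almost without exception. Of 30 mitosis genes 29 fell, with a median log2 fold change of -1.50, against 13.4% of all genes, and of 30 DNA replication genes 27 fell, with a median of -1.71. No member of either list rose. Summed over the lists, mitosis genes were at 1768 to 1877 CPM in hypoxia and 4919 to 5171 CPM in normoxia, and replication genes at 910 to 1118 CPM and 3050 to 3313 CPM. The counts were 30 and 29 without replicate 2 of hypoxia and also with the length trend removed.

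*Mki67*, the proliferation marker Ki-67, was at 143, 132 and 129 CPM in hypoxia and 431, 557 and 475 CPM in normoxia (-1.86 ± 0.15, adjusted p = 0.000354). *Ccna2*, cyclin A2, was at 45.5, 38.9 and 45.3 CPM against 188, 178 and 172 CPM (-2.05 ± 0.13, adjusted p = 0.000175). *Bub1b*, a kinase of the spindle checkpoint, was at 31.9, 22.6 and 29.0 CPM against 126, 124 and 131 CPM (-2.19 ± 0.16, adjusted p = 0.000270). The replicates of each group lay close together for these genes. *Cdk1* was at 73.7, 131 and 91.6 CPM against 221, 191 and 192 CPM (-1.03, adjusted p = 0.0118), a smaller change with a wider spread, and it was not called without replicate 3 of hypoxia (-0.96). *Birc5*, survivin, was the only member that did not pass (-0.44 ± 0.22, adjusted p = 0.161).

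The drops in replication genes reached nucleotide supply, the polymerase and the helicase. *Rrm2*, a subunit of ribonucleotide reductase, was at 38.4, 11.6 and 35.2 CPM against 246, 231 and 235 CPM (-3.06 ± 0.41, adjusted p = 0.00218). *Pole*, the catalytic subunit of DNA polymerase ε, was at 12.6, 10.7 and 11.5 CPM against 77.0, 80.2 and 81.8 CPM (-2.78 ± 0.14, adjusted p = 9.31e-05). *Mcm5*, a helicase subunit, was at 38.0, 40.5 and 36.6 CPM against 200, 177 and 196 CPM (-2.31 ± 0.13, adjusted p = 0.000161). The second hypoxic library was the lowest for *Rrm2* but not for *Mcm5*. *Pcna*, the sliding clamp, was at 125, 187 and 157 CPM against 253, 209 and 215 CPM and did not pass (-0.53, adjusted p = 0.0554), nor did *Rfc4* (-0.14) or *Prim1* (-0.53).

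Regulators of G1 were mixed, with 3 risers and 9 fallers of 22. *Ccnd1*, cyclin D1, was at 433, 350 and 397 CPM against 915, 714 and 886 CPM (-1.09 ± 0.16, adjusted p = 0.00341). *Ccne1*, cyclin E1, was at 19.9, 18.7 and 17.6 CPM against 75.8, 64.0 and 65.8 CPM (-1.87 ± 0.14, adjusted p = 0.000278). *Cdkn1a*, the inhibitor p21, was at 548, 537 and 514 CPM against 201, 152 and 192 CPM (1.55 ± 0.15, adjusted p = 0.000599). Both of these cyclins fell and p21 rose, while *Cdkn1b*, the inhibitor p27, did not pass (0.07). *Myc*, a growth promoter, was at 58.4, 53.4 and 51.3 CPM against 20.7, 16.6 and 17.4 CPM and rose while the cell cycle genes fell (1.57 ± 0.15, adjusted p = 0.000560).

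Among genes of the p53 pathway 10 of 23 rose and none fell, with a median of 0.44. *Gadd45a*, a growth arrest gene, was at 282, 291 and 322 CPM against 51.1, 35.1 and 46.6 CPM (2.75 ± 0.18, adjusted p = 0.000175). *Mdm2*, the ubiquitin ligase of p53, was at 328, 367 and 375 CPM against 158, 173 and 155 CPM (1.14 ± 0.13, adjusted p = 0.00106). *Bax*, a pro-apoptotic effector, was at 251, 327 and 290 CPM against 137, 79.5 and 126 CPM (1.34 ± 0.22, adjusted p = 0.00514). Several members of the list, *Gadd45a* and *Sesn2* among them, are also known to respond to ATF4.

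Short stretches of promoter around sequence motifs are shown for stress response and replication genes, 2 of the groups whose promoters were searched for motifs of known factors. RefSeq promoters (GRCr8) of 300 bases, 250 before and 50 after the start, were matched for 9267 of the 14811 tested genes and searched on both strands. The C/EBP-ATF composite TGATGNAA stood in the promoters of 3 of 17 called stress response genes (17.6%), 1.89% of tested genes and 3.82% of the promoters in the table. The cell cycle element TTTGAA stood in 18 of 26 called mitosis genes (69.2%), 11.7% of tested genes and 18.1% of all promoters. The E2F motifs TTCCCGCC, TTTCCCGC and TTTGGCGC, which overlap in sequence, stood in 13 of 23 called replication genes (56.5%), 5.88% of tested genes and 3.07% of all promoters. Over all tested members of these 3 lists, called or not, the shares were 22.7%, 70.4% and 57.7%. Called members made up 17 of 22, 26 of 27 and 23 of 26 of these promoters. The shares therefore cannot tell whether called members carry the motifs more often. In the lines below capitals mark the motif match on either strand.
Trib3, chr3:161275538-161275563, minus strand: agctcaggtTTACATCAgccgggcgg
Chac1, chr3:126795955-126795980, plus strand: tctccgccgTTGCATCActcctgcta
Nupr1, chr1:190645940-190645965, minus strand: aaggccagaTTGCATCAgacagggct
Mcm5, chr19:13488796-13488821, plus strand: aggttggttTTTCCCGCgaaagtcgg
Mcm3, chr9:30733737-30733762, minus strand: aacttccgtGGCGGGAAaacttggga
Pole, chr12:52053648-52053673, minus strand: catgagagcGCGCCAAAttttcccgg
The first 3 lines are stress response genes and the last 3 replication genes. *Nupr1* is a name on several identifiers, so its counts are uncertain. *Chac1*, a glutathione-degrading enzyme, was at 115, 117 and 98.1 CPM in hypoxia and 53.5, 43.4 and 46.5 CPM in normoxia (1.20 ± 0.14, adjusted p = 0.00127). A match is a description of these letters, and binding was not measured. The hypoxia response core, ACGTG or GCGTG, is short and stood in 61.4% of tested genes, so its presence in 11 of 14 called HIF targets (78.6%) separates little. The antioxidant core TGACNNNGC stood in 2 of 10 called NRF2 genes (20%), 4 of 16 tested NRF2 genes (25%), 14.7% of all tested genes and 12.2% of all promoters. The sterol core TCACNCCAC stood in 0 of 14 called cholesterol genes, 1.17% of tested genes and 1.13% of all promoters.

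Of 24 genes of cholesterol synthesis and uptake, 21 fell and none rose, with a median log2 fold change of -1.64. Their sum was 622 to 674 CPM in hypoxia and 2093 to 2147 CPM in normoxia. *Idi1*, an isomerase of the mevalonate pathway, was at 7.46, 8.98 and 9.52 CPM against 55.9, 66.7 and 55.7 CPM (-2.78 ± 0.17, adjusted p = 0.000161). *Insig1*, a feedback regulator under the SREBP factors, was at 14.8, 15.7 and 14.1 CPM against 109, 114 and 108 CPM (-2.90 ± 0.13, adjusted p = 8.16e-05). *Hmgcs1*, an early step of synthesis, was at 62.2, 52.8 and 67.6 CPM against 228, 250 and 232 CPM (-1.96 ± 0.14, adjusted p = 0.000267). The groups lay far apart in each, and *Srebf2*, which encodes an SREBP factor, fell as well (-1.63). *Mvk* (-0.57), *Pmvk* (0.29) and *Tm7sf2* (0.29) did not pass.

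Genes of the immediate early and serum response had 9 fallers and 2 risers of 26. *Ankrd1*, a YAP and serum response target of muscle, was at 740, 1025 and 865 CPM against 2453, 2671 and 2382 CPM (-1.51 ± 0.18, adjusted p = 0.00111). *Egr1* was at 51.2, 32.0 and 37.6 CPM against 86.4, 74.0 and 70.0 CPM (-0.93, adjusted p = 0.0121). *Fos* was at 4.80, 3.90 and 4.76 CPM against 7.82, 7.15 and 7.46 CPM (-0.73, adjusted p = 0.0264). The fallers numbered 4 without Normoxia Trim AGU replicate 1, 6 without Normoxia replicate 3 and 6 without Hypoxia Trim AGU replicate 3. The risers, *Klf4* (1.54) and *Ier5* (0.68), numbered 1 without any 1 of the normoxic libraries or Hypoxia replicate 1. *Egr1* was not called without Normoxia replicate 1 (-0.84), and *Fos* not without any 1 of the normoxic libraries or Hypoxia replicate 3 (-0.77 to -0.71). Of 21 genes known to rise on quiescence or nutrient withdrawal, 6 rose and none fell, against 13.6% and 13.4% of all genes. The list had no common direction, with a median log2 fold change of -0.02 and 10 positive and 11 negative changes. *Klf15*, a nutrient-regulated factor, was at 4.53, 2.66 and 4.62 CPM against 0.277, 0.508 and 0.646 CPM (3.03 ± 0.40, adjusted p = 0.00204). *Txnip*, a brake on glucose uptake, was at 80.8, 74.3 and 75.6 CPM against 45.5, 52.8 and 39.0 CPM (0.75, adjusted p = 0.00961) and was not called without Normoxia replicate 3 (0.64). *Foxo3* did not pass (-0.87, adjusted p = 0.166).

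Few mitochondrial respiration genes were called. Of 32 nuclear subunits 2 rose, with a median of 0.32, and of 13 genes of the mitochondrial genome 1 rose, with a median of 0.30. With the length trend removed the medians were 0.08 and -0.07 and no gene of either list was called higher, while 2 genes of the mitochondrial genome were called lower. The removal also takes out any difference between the groups that genes of like length share, so the part of length was not tested. These lists are short-gene lists, with median lengths of 1074.5 and 784 bases against 2457 for all genes. The 2 nuclear risers were *Ndufa2* (1.09, adjusted p = 0.0401) and *Ndufs3* (0.77, adjusted p = 0.0497). No nuclear subunit was called without Normoxia Trim AGU replicate 1, 2 or 3 or without Hypoxia Trim AGU replicate 3, 1 was called without Hypoxia replicate 2, and 9 were without Hypoxia replicate 1. *Mt-atp8* was the mitochondrial riser (0.81, adjusted p = 0.0274). It was not called without any 1 of the normoxic libraries or without Hypoxia replicate 3, where that list had 0 risers, and the list had 3 without Hypoxia replicate 1. *Cox4i1* was at 358, 668 and 403 CPM against 343, 247 and 306 CPM (0.67, adjusted p = 0.0820), and its partner isoform *Cox4i2* was too low to be tested.

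The muscle program did not move one way. Of 22 sarcomere and myogenic genes 5 rose and 3 fell. *Mylpf*, a fast myosin light chain, was at 29.2, 39.7 and 32.1 CPM against 13.6, 15.8 and 12.3 CPM (1.28 ± 0.18, adjusted p = 0.00280). *Acta1*, skeletal α-actin, was at 64.8, 75.6 and 52.4 CPM against 36.0, 40.6 and 35.8 CPM (0.78, adjusted p = 0.0124) and was not called without Normoxia replicate 1 or 3 (0.75 and 0.74). *Myod1*, the myogenic determination factor, was at 22, 21.8 and 16.8 CPM against 136, 118 and 122 CPM (-2.63 ± 0.16, adjusted p = 0.000161). *Myog*, which acts after it in differentiation, was at 40.6, 43.7 and 35.4 CPM against 46.0, 56.4 and 49.8 CPM and did not pass (-0.35, adjusted p = 0.110). *Tnnt2*, cardiac troponin T, was at 31.3, 59.8 and 33.3 CPM against 20, 36.1 and 23.2 CPM, with overlapping groups (0.65 ± 0.31, adjusted p = 0.152). The risers of this list numbered 3, 3 and 2 without Normoxia replicate 1, 2 or 3.

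Matrix genes had calls in both directions. Of 29 collagen and matrix genes 5 fell and 2 rose, against 13.4% lower and 13.6% higher of all genes. The median of the list was -0.38. *Thbs1*, thrombospondin 1, was at 1913, 405 and 1216 CPM against 5636, 6731 and 6149 CPM (-2.39 ± 0.49, adjusted p = 0.0113). *Tnc*, tenascin C, was at 8.88, 2.21 and 6.72 CPM against 67.8, 86.2 and 72.4 CPM (-3.66 ± 0.45, adjusted p = 0.00157). The second hypoxic library was by far the lowest for both. *Dcn*, decorin, was at 9.46, 8.26 and 11.6 CPM against 0.796, 2.10 and 1.26 CPM (2.82 ± 0.37, adjusted p = 0.00192). The fibrillar collagens *Col1a1* (-0.54, adjusted p = 0.127) and *Col3a1* (-0.20, adjusted p = 0.562) did not pass. Matrix genes are long, with a median of 4475 bases, and with the length trend removed the median was -0.15 with 6 fallers and 3 risers. Among all genes of 4000 bases up to 8000 whose mean reached 5 CPM, 25.1% were called lower and the median was -0.349. Without Hypoxia replicate 1 the fallers numbered 8, and without Normoxia replicate 1 or 3 or Hypoxia replicate 3 the risers numbered 1.

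Interferon and cytokine genes gave no common direction. Of 21 interferon-stimulated genes 6 rose and 2 fell. *Isg20*, an exonuclease, was at 31.2, 67.5 and 27.1 CPM against 8.65, 7.49 and 7.20 CPM (2.43, adjusted p = 0.00316), whereas *Mx2*, a dynamin-like GTPase, was at 0.212, 0.207 and 0.0289 CPM against 2.08, 3.35 and 2.0 CPM (-4.04 ± 0.58, adjusted p = 0.00294). Without Normoxia replicate 2 or 3 the risers numbered 4 and 3. Of 15 chemokines and cytokines 2 rose and 4 fell. *Il6* was at 8.91, 12.7 and 12.4 CPM against 4.26, 4.84 and 3.36 CPM (1.45 ± 0.24, adjusted p = 0.00491), and *Cxcl12*, which retains stem and immune cells, was at 151, 112 and 133 CPM against 491, 558 and 538 CPM (-2.00 ± 0.16, adjusted p = 0.000348). *Irf7* did not pass (0.18), and *Ccl2* was too low to be tested.

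Most genes that the study named are predicted targets of miR-125b or genes of apoptosis, and the others include *Tnnt2* and the reference gene *Actb*. Of 15 tested genes so named, 2 rose and 4 fell between normoxia and hypoxia, against 13.6% higher and 13.4% lower of all genes. *Tnnt2* was chosen by the study on sequencing data of these samples. *Bax* rose, with the values given above. *Tnfrsf1b*, a tumour necrosis factor receptor, was at 0.272, 0.242 and 0.202 CPM against 1.28, 1.46 and 1.00 CPM (-2.37 ± 0.38, adjusted p = 0.00437). *Traf6* (-0.98), *Tp53inp2* (-0.80) and *Actb* (-0.77, adjusted p = 0.0157) also fell, the last at 2529, 2710 and 2393 CPM against 4066, 5097 and 3839 CPM. The BH3-only gene *Bmf* (-0.70, adjusted p = 0.187) and the effector *Bak1* (0.27) did not pass. The 4 fallers numbered 2 without Normoxia replicate 2 or 3. *Usp15*, a deubiquitinase, had a log2 fold change of 0.00 ± 0.15 (adjusted p = 0.992).

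Outside the lists, the genes that rose most among those whose mean reached 5 CPM included detoxifying dehydrogenases and RNAs without poly-A tails. *Aldh3a1*, an aldehyde dehydrogenase, was at 97.8, 140 and 83.0 CPM against 6.02, 4.06 and 5.39 CPM (4.37 ± 0.26, adjusted p = 0.000161). *Adh7*, an alcohol dehydrogenase, was at 32.0, 34.2 and 33.3 CPM against 2.21, 1.29 and 1.45 CPM (4.33 ± 0.24, adjusted p = 0.000161). The small nuclear RNA *7SK* was at 6.65, 15.1 and 7.82 CPM against 0.311, 0.136 and 0.0646 CPM (5.83 ± 0.57, adjusted p = 0.000599). The ribosomal RNA *5_8S_rRNA* rose by 3.69 (adjusted p = 0.000191). Neither RNA carries a poly-A tail, so its level in a poly-A library also depends on how completely such RNA was removed, whose part was not tested. Among the genes that fell most, *Klhl41*, a sarcomere assembly protein, was at 20.4, 21.3 and 19.3 CPM against 229, 247 and 221 CPM (-3.51 ± 0.13, adjusted p = 8.16e-05). *Xirp1*, an actin-binding protein of striated muscle, was at 0.755, 0.138 and 0.577 CPM against 12.3, 15.1 and 13.6 CPM (-4.77).

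The same oxygen contrast was available, in other libraries, for 4 other mimics. Of genes tested, 9.34% were higher and 11.5% lower under miR-125b, 10.0% and 12.8% under Plus A, 12% and 14.5% under Trim A, and 15% and 17.8% under Trim AG. Such shares also depend on depth and spread, so they are not sizes of response. Hypoxia Trim AG libraries held 39940087 to 42672584 counts, against 31870038 to 34048139 for Hypoxia Trim AGU. The mean distance within Hypoxia Trim AGU was 0.859, against 0.451 (miR-125b) to 0.53 (Trim A) in the hypoxic groups of the other mimics. Of the Trim AGU calls tested in both, 730 of the higher ones (36.4% of the Trim AGU calls and 55.4% of the miR-125b calls) and 1191 of the lower ones (60.9% and 69.5%) were also called under miR-125b. For Trim A these numbers were 1139 (56.8% and 67.4%) and 1477 (75.6% and 68.5%), and for Plus A 697 (34.9% and 50.3%) and 1179 (60.3% and 62.1%). For Trim AG they were 1392 (69.4% and 63.6%) and 1578 (80.1% and 59.6%). Across genes, which are not independent replicates, the log2 fold changes of Trim AGU correlated with those of miR-125b at r = 0.74, with those of Plus A at r = 0.67 and with those of Trim A and of Trim AG at r = 0.82 each. All 30 mitosis genes fell under each of the 4 other mimics as well.

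**Figure D4:**
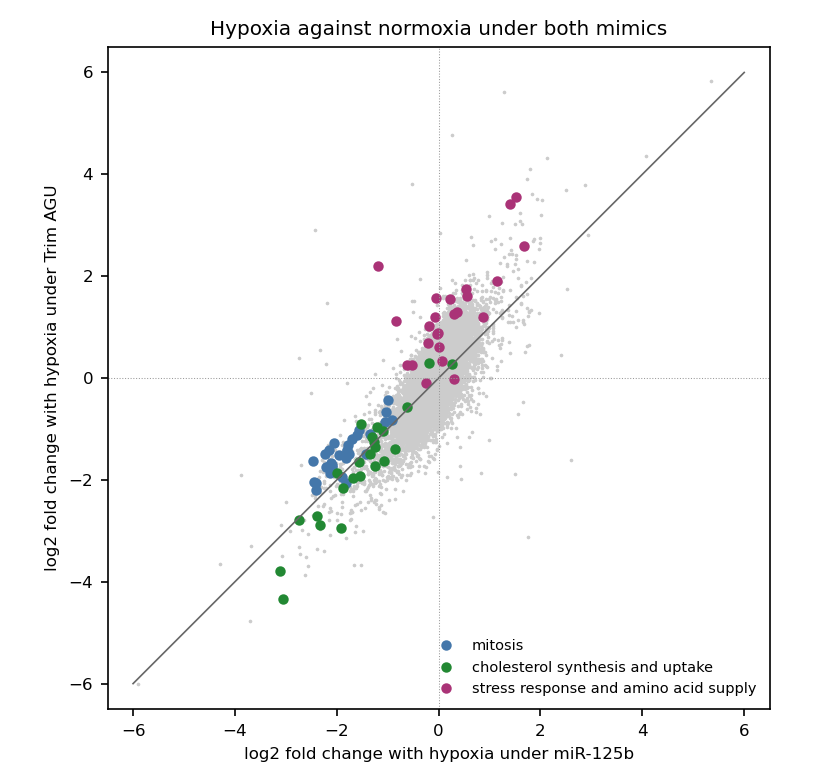
Log2 fold change of hypoxia against normoxia under miR-125b (horizontal axis) and under Trim AGU (vertical axis) for 10425 genes whose mean reached 5 CPM (grey) and for the tested members of 3 lists (coloured), with the diagonal marking equal change. Mitosis and cholesterol genes lie mostly below 0 on both axes, and stress response genes lie mostly above the diagonal.

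Whether the oxygen effect differed between mimics was tested as an interaction over 12 libraries. Against miR-125b, the effect was higher under Trim AGU for 95 of 15525 genes (0.612%) and lower for 55 (0.354%). Against Trim AG it differed for 3 genes (0.0193%), all higher, while DESeq2 called 30 higher and 28 lower. Without Normoxia Trim AG replicate 1 the higher genes numbered 5, and they numbered 1 without any 1 of the Hypoxia Trim AG libraries or Normoxia Trim AGU replicate 3. The numbers against miR-125b also rested on individual libraries and on the tool, since DESeq2 called 400 higher and 363 lower. Without any 1 of the 6 miR-125b libraries 10 to 22 genes were higher and 1 to 10 lower. Without Normoxia Trim AGU replicate 1, 2 or 3 they were 49, 41 and 20 higher and 27, 16 and 3 lower. Without Hypoxia Trim AGU replicate 1, 2 or 3 they were 1402, 241 and 57 higher and 848, 313 and 18 lower. The difference from miR-125b also followed gene length among genes whose mean reached 5 CPM. Its median ran from 0.616 for genes under 500 bases to -0.366 for those of 8000 bases or more. The part of this trend in the calls was not tested other than by removing it.

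Of 25 stress response genes tested, 13 had a higher oxygen effect under Trim AGU than under miR-125b and none a lower one, against 0.612% of all genes. *Trib3* differed by 2.05 ± 0.16 (adjusted p = 0.000458), *Ddit3* by 2.05 ± 0.33 (adjusted p = 0.0190), *Asns* by 1.35 (adjusted p = 0.0190) and *Chac1* by 1.30 (adjusted p = 0.00374). The count was 16 with the length trend removed and 17 without Hypoxia Trim AGU replicate 2. It was 5, 4 and 4 without Normoxia miR-125b replicate 1, 2 or 3, 2, 3 and 3 without Hypoxia miR-125b replicate 1, 2 or 3, and 6 and 4 without Normoxia Trim AGU replicate 2 or 3. *Ddit3* was not called without any 1 of the miR-125b libraries or without Normoxia Trim AGU replicate 2 or 3 (2.01 to 2.10). Against Trim AG, 0 of 25 stress response genes were called by edgeR and 1, lower, by DESeq2. With 0.0193% of all genes called, this says nothing particular about the list.

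The levels behind these differences, on a scale normalised over 33 libraries, lay further apart in normoxia than in hypoxia. *Trib3* was at 158, 161 and 168 CPM in Normoxia miR-125b and at 52.3, 38.8 and 49.4 CPM in Normoxia Trim AGU. In hypoxia it was at 474, 472 and 462 CPM with miR-125b and at 521, 598 and 514 CPM with Trim AGU. *Asns* was at 231, 222 and 206 CPM in Normoxia miR-125b and at 110, 107 and 99.1 CPM in Normoxia Trim AGU. The hypoxic values of *Asns* were 258, 259 and 256 CPM with miR-125b and 250, 393 and 275 CPM with Trim AGU, where the groups overlapped. Over all 24 stress response genes tested under Trim AGU, the normoxic mean was lower with Trim AGU than with miR-125b in 24 genes, with a median ratio of 0.532, while this held for 49.9% of all genes tested. The hypoxic mean was lower in 10 of the 24, with a median ratio of 1.17. These ratios come from the libraries of the interaction and are given with no test of their own.

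**Figure D5:**
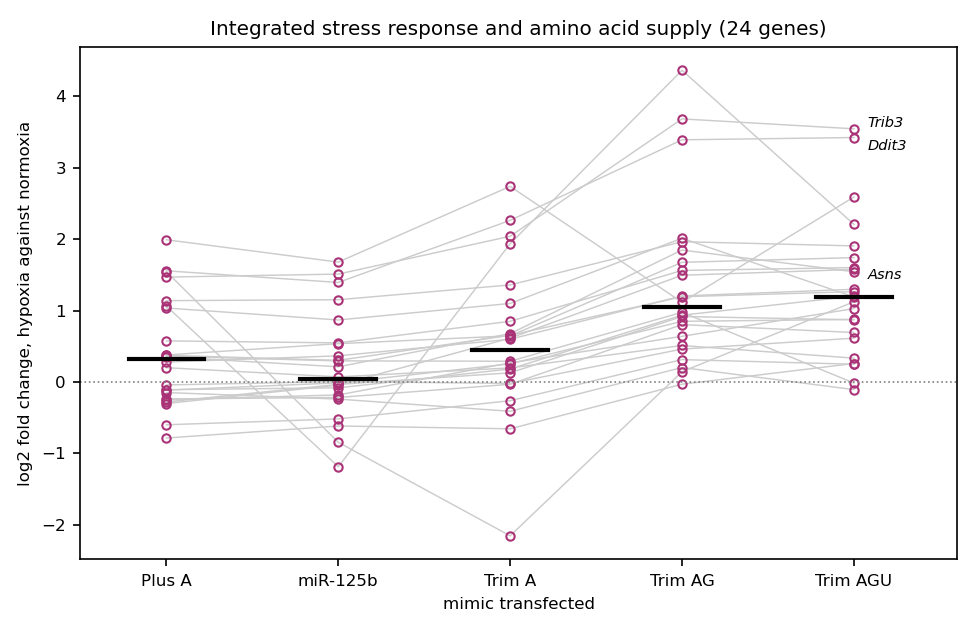
Log2 fold change of hypoxia against normoxia (vertical axis) for 24 genes of the integrated stress response and amino acid supply under 5 mimics (horizontal axis), with a grey line joining each gene and a black bar at the median. From left to right the medians are 0.317, 0.0395, 0.445, 1.05 and 1.20.

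By mimic, 6 of 25 stress response genes rose under miR-125b and 1 fell, 7 rose and 2 fell under Plus A, and 13 rose and 1 fell under Trim A. Under Trim AG 17 of 24 rose and none fell. The NRF2 genes followed with 7, 6, 9, 13 and 13 of 19 risers in the same order of mimics, ending with Trim AGU. In the interaction against miR-125b, 6 NRF2 genes had a higher oxygen effect under Trim AGU, with *Hmox1* differing by 1.48 (adjusted p = 0.00374) and *Nfe2l2* by 0.81 (adjusted p = 0.0230). The NRF2 count was 1 to 2 without any 1 of the miR-125b libraries, 1 without Normoxia Trim AGU replicate 3, and 12 and 11 without Hypoxia Trim AGU replicate 1 or 2. *Nqo1* missed the threshold there (1.12, adjusted p = 0.0615).

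Further genes with a different oxygen effect are given by their levels. *Angptl4* differed by 2.33 ± 0.28 (adjusted p = 0.00667). It was at 1.10, 1.24 and 1.51 CPM in Normoxia miR-125b and 4.38, 4.99 and 4.14 CPM in Hypoxia miR-125b, against 0.646, 0.872 and 0.703 CPM and 12.7, 14.2 and 11.2 CPM with Trim AGU. *Adh7* differed by 2.21 ± 0.25 (adjusted p = 0.00394), with hypoxic levels of 11.6, 11.0 and 9.98 CPM under miR-125b and 32.9, 35 and 34.3 CPM under Trim AGU. For both, every hypoxic Trim AGU library lay above every hypoxic miR-125b library. *Col6a3*, a chain of collagen VI, did the reverse: it was at 76.4, 80.7 and 83.0 CPM in Normoxia miR-125b and 87.9, 90.1 and 94.9 CPM in Hypoxia miR-125b, but 140, 192 and 157 CPM in Normoxia Trim AGU and 63.4, 25.1 and 38.5 CPM in Hypoxia Trim AGU (-2.10 ± 0.34, adjusted p = 0.0209). It was not called without any 1 of the miR-125b libraries, without Normoxia Trim AGU replicate 2 or 3, or without Hypoxia Trim AGU replicate 3 (-2.16 to -1.95).

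Against Trim AG the named genes that differed were *Myog* and *Krt8*. *Myog* was at 39.5, 52.0 and 40.9 CPM in Normoxia Trim AG and 11.5, 10.5 and 11.5 CPM in Hypoxia Trim AG, but 47.6, 58.1 and 51.6 CPM in Normoxia Trim AGU and 41.8, 44.8 and 36.4 CPM in Hypoxia Trim AGU. The oxygen effect differed by 1.65 (adjusted p = 0.0165). *Krt8*, a keratin of simple epithelia that is also found in early muscle, was at 41.1, 40.8 and 35.8 CPM and 55.7, 48.7 and 57.0 CPM with Trim AG, and at 51.4, 41.2 and 42.7 CPM and 146, 193 and 160 CPM with Trim AGU, in normoxia and hypoxia in turn (1.45, adjusted p = 0.0331). The third gene was a locus without a gene name. *Myog* was not called without any 1 of the Hypoxia Trim AG libraries or without Normoxia Trim AGU replicate 1 or 3 (1.56 to 1.65). *Krt8* was not called without any 1 of the Trim AG libraries, without Normoxia Trim AGU replicate 2 or 3, or without Hypoxia Trim AGU replicate 3 (1.37 to 1.49).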

How the data were processed

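RNA of H9C2 cells was measured by poly-A RNA sequencing that did not keep the strand. The authors deposited raw read counts per gene and library in tables of 2 groups each, and the submitters' processing notes name HISAT2 and StringTie without versions. The genome build is not given in the sources used here. The FPKM values, fold changes and p-values in the authors' tables were not used. Tables were joined on the gene identifier, and a gene absent from a table, which had at most 1 count, was set to 0. Counts conflicted for 0 genes, 33 of 36 libraries had counts, and 0 count columns were left unmapped. Totals were 28868303 to 34048139 counts in the 6 libraries analysed, and the spread between libraries includes the counting error.

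Counts were tested with edgeR 4.0.16 (TMM, filterByExpr, quasi-likelihood test) in R 4.3.3, with Benjamini-Hochberg adjustment over all genes tested and a fold threshold of 1.5. The standard error was taken as the size of the log2 fold change divided by the root of F. CPM values are scaled by TMM over the 6 libraries unless stated. Interactions were fitted on 12 libraries. Alternatives were DESeq2 1.42.0, RLE size factors, no filter, a replicate block, all libraries in 1 fit, each library left out, and fold thresholds of 2 and none. A lowess trend on gene length (span 0.3) was removed as an alternative added after the data were seen. It was fitted to the difference of each library from the mean of all libraries in the fit. Length bins used 0.5 CPM added to each value and distances a prior count of 2. The test step was tested on simulated data. Python 3.11.15, pandas 2.3.3, numpy 2.4.6 and matplotlib 3.10.9 were used.

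The comparison, the gene lists and the named genes were chosen with earlier results of these data known. Named genes are a set of key genes of the pathways, per list up to 4 called members in each direction with the largest change and the most abundant member, the 10 called genes in each direction with the largest change among those averaging 5 CPM or more whose groups did not overlap, 5 per interaction by the same rule without the condition on overlap, and genes the study examined. Other members named as examples were chosen after their values were seen. Unnamed loci were left out, the values of some genes are not reported here, and list members matching no gene name were not analysed here. Counts of names on more than 1 identifier (312 names) and of near-identical, overlapping or antisense genes are uncertain. The number of replicates, 3 per group, limits the precision.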

Additional observations from a re-analysis of the deposited data

Results flagged for a closer look

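Each result in this part drew attention because an interaction test found the effect of hypoxia to differ between Trim AGU and another mimic. Against miR-125b the effect was higher for 95 genes and lower for 55. The named genes with the largest differences were *Angptl4* (2.33 on the log2 scale), *Gzmbl3* (2.22), *Cox6a2* (2.21), *Adh7* (2.21) and *Ddit3* (2.05) on the higher side. On the lower side they were *Col6a3* (-2.10), *Prima1* (-1.99), *Olfml2b* (-1.74), *Map3k7cl* (-1.49) and *Lox* (-1.43). *Cox6a2*, a subunit of cytochrome c oxidase of muscle, was at 18.7, 50.5 and 25.9 CPM in hypoxia and 3.63, 3.69 and 3.2 CPM in normoxia under Trim AGU. *Gzmbl3* was at 5.44, 6.91 and 6.29 CPM against 10.2, 4.23 and 8.59 CPM, where the groups overlapped.

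By list, the oxygen effect differed for 13 genes of the integrated stress response, 6 of the NRF2 response, 4 HIF targets, 3 sarcomere and myogenic genes and 3 genes of the p53 pathway. Against Trim AG it was higher for 3 genes, of which *Myog* (1.65) and *Krt8* (1.45) have names. Of the 10 genes named against miR-125b, *Angptl4* and *Adh7* were called with any 1 of the 12 libraries left out, and each of the other 8 lost its call without at least 1 miR-125b library.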

How the results depend on the processing

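The 2017 genes higher in hypoxia under Trim AGU were 1044 with the replicate block, 1067 at a fold of at least 2 and 738 to 2333 with 1 library left out. The 1978 lower genes were 1401 with the block, 3135 with all libraries in 1 fit, 1243 at a fold of at least 2 and 1099 to 2359 with 1 library left out. Deviations of same-numbered libraries from their group means correlated at -0.198, -0.0774 and 0.0854, and not every library correlated best with its own number. The length trend of each library was not removed first, so these correlations cannot tell whether replicate numbers pair the libraries. With the block, the interaction against miR-125b gave 14 higher and 1 lower genes. Those 95 higher genes were 400 with DESeq2, 162 with the length trend removed, 56 at a fold of at least 2 and 10 to 1402 with 1 library left out. The 55 lower genes were 363 with DESeq2, 91 with the length trend removed and 1 to 848 with 1 library left out. Against Trim AG the 3 higher genes were 30 with DESeq2 and 1 to 5 with 1 library left out, and the 0 lower genes by edgeR (1367 genes in either direction at an unadjusted p below 0.05) were 28 with DESeq2, 1 with the length trend removed and 0 to 1 with 1 library left out.

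Of the higher calls, 77.3% also passed with the length trend removed and 81.0% without Hypoxia Trim AGU replicate 2, and of the lower calls 81.5% and 93.7%. The genes that changed sign had not passed the test. *Pfkfb3* was at 0.02532, *Cdkn1b* at -0.05858, *Col3a1* at 0.1044 and *Usp15* at 0.3348 with the length trend removed. *Usp15* was also at 0.004269 with DESeq2 and 0.004296 with RLE factors. With 1 library left out *Hk2* ranged from -0.0009791 to 0.4087, *Cdkn1b* from -0.008466 to 0.1778 and *Usp15* from -0.07823 to 0.09726. The cause of these shifts was not tested.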
